A study of Mus musculus with 8 samples.

Results

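The genes described here are 10 members of the integrated stress response in tumor-associated macrophages (TAMs), out of 23413 gene symbols counted. They are Atf4 itself, the bZIP factors Atf5, Ddit3, Cebpb and Cebpg, the feedback genes Trib3 and Ppp1r15a, and the effectors Chac1, Sesn2 and Asns. They form a list of ATF4 pathway genes that was chosen by name and selected on their counts in the DMSO, I.P. and S.C. mice. Their differences between these groups are therefore descriptions, given with a standard error (SE). Where the text says that one of the 10 met a threshold, this only describes values that also chose the list, and it is no test of the gene. TAMs came from subcutaneous B16F10 melanomas of male C57BL/6 mice that were 8 to 10 weeks old. Dosing fell on days 6 and 12 of tumor growth in all mice, which were killed on day 18, when the TAMs of each tumor, sorted as CD45+F4/80+CD11b+Gr-1-, were sequenced on their own. The vehicle, DMSO, was given to 2 mice, the thiopeptide antibiotic thiostrepton was given by intraperitoneal injection (I.P.) to 4 mice, and thiostrepton was injected subcutaneously beside the tumor (S.C., labelled IS) in 2 mice at 20 mg/kg. For these mice, the I.P. dose and the route of the DMSO injections are not given in the sources used here.

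In the integrated stress response, the kinases GCN2, PERK, HRI and PKR phosphorylate the translation initiation factor eIF2, which lowers general translation and raises translation of the Atf4 mRNA. ATF4 pairs with C/EBP proteins at composite C/EBP-ATF elements and induces genes for amino acid supply, along with DDIT3 (CHOP) and, further on, brakes such as TRIB3 and PPP1R15A (GADD34). In macrophages the pathway is known to respond to amino acid shortage, proteotoxic stress and oxidative stress, and CEBPB is also a differentiation and inflammatory factor there.

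Promoter sequences are shown because most of these genes are known to be bound by ATF4, and the letters of 2 elements can be read directly. RefSeq windows on GRCm38.p6 of 300 bases, with 250 before and 50 after the gene start, were found for all 10 genes. They were searched on both strands for the C/EBP-ATF-like motif TGATGNAAN and for the cyclic AMP response element TGACGTCA, which do not overlap in the matches found. The first motif was present in 3 of the 10 genes (Chac1, Trib3 and Asns) and in 3.95% of all 32851 windows. The second was present in 1 gene (Ppp1r15a) and in 1.79% of all windows. A match says only that the letters are there, and other genes may hold an element outside this window. The stretches below are written 5′ to 3′ on the gene strand, with the match in capitals.

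Chac1, chr2:119350992-119351228, plus strand, ending at the base before the GENCODE gene start: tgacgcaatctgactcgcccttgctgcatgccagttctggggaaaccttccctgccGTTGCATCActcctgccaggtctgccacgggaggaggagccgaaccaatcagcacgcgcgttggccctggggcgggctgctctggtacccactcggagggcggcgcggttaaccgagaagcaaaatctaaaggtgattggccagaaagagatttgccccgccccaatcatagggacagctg
Trib3, chr2:152344029-152344057, minus strand: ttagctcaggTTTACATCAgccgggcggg
Asns, chr6:7693214-7693242, minus strand: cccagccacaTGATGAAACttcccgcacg
Ppp1r15a, chr7:45526263-45526290, minus strand: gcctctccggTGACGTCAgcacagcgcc

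The Chac1 and Trib3 matches lie on the strand opposite to the gene. The first base of the match, counted along the gene strand, is 194 bases upstream of the RefSeq start in Chac1, 23 bases upstream in Asns and 12 bases upstream in Ppp1r15a. In Trib3 the match lies just downstream of the RefSeq start and 15 bases upstream of the GENCODE start. In Asns it lies within the first exon as GENCODE draws it.

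The count table held 14127506 to 17577466 counts for each mouse. Levels are given as CPM, a gene's count relative to the TMM-scaled size of its library, on which a floor of 3 counts corresponds to 0.171 to 0.212 CPM. The floor covers counting error only. The S.C. libraries had no count for 0.525% and 0.364% of the genes averaging 5 CPM or more, against 0.129% or less in the other 6. Macrophage markers were detected in every library (10 of 10 above 0, summed 24326 to 37900 CPM). Melanoma markers (6 genes, 0 of them at 0 in any library) summed to between 583 and 643 CPM in DMSO mice, 430 and 1653 CPM in I.P. mice, and 680 and 2966 CPM in S.C. mice. Neutrophil markers (9 measured) summed to 38.3 to 61.6 CPM in DMSO and 37.9 to 84.9 CPM in I.P. mice, with up to 4 and 5 of them at 0 in these groups. In S.C. mice 1 and 2 their sums were 60.9 and 342 CPM. Markers of T and NK cells (9), B cells (5), dendritic cells (7) and fibroblasts or endothelium (7) summed to at most 60.6, 29.8, 30.6 and 9.34 CPM in any library. By S.C. against DMSO, 5 of the 8 neutrophil, 3 of the 6 melanoma, 2 of the 3 B cell and 1 of the 5 T and NK cell markers tested met the criterion defined below and were higher, against 0 of the markers of these 4 lists by I.P., and the part of these cells in the S.C. values was not tested. Fewer cells of a type and less RNA per cell cannot be told apart in these libraries.

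TAMs of I.P. mice had more mRNA of most of these genes than TAMs of DMSO mice, and for 8 of the 10, all but Cebpb and Ppp1r15a, the fitted difference from DMSO was smaller in S.C. mice. For 7 of the 10 genes (Chac1, Trib3, Asns, Sesn2, Ddit3, Atf4 and Cebpg) every one of the 4 I.P. mice exceeded both DMSO mice, as held for 7.32% of the 12174 genes tested, and for 0 they lay below both, as held for 6.83%. The log2 fold change was above 0 for all 10 genes, as for 51.8% of all genes, and by S.C. for 8 of the 10, as for 51.6%. By I.P. they had a median of 1.29 against 0.02 over all genes. In S.C. mice the median was 0.43, against 0.02 over 11680 genes, and 6 of the 10 genes lay above both DMSO mice in both S.C. mice, as did 17.1% of all genes, with 0 below (17.2% of all genes). Both comparisons share the same 2 DMSO mice. Where a DMSO or S.C. mouse is left out below, 1 mouse of that group remains, and calls then rest on the spread of the other group. The study used edgeR with a threshold of P under 0.05 and a 2-fold change. That threshold on the unadjusted P of edgeR's quasi-likelihood test is the criterion used below. It called 6 of the 10 genes in I.P. mice and 0 in S.C. mice. By the quasi-likelihood test, the share of all genes called was 1.53% higher and 0.468% lower by I.P., and 2.29% higher and 2.77% lower by S.C. The likelihood ratio test called 6 of the 10 genes by I.P., among 352 called of the 12174 tested, 76.4% of them higher. By S.C. it called 1 of the 10 (Ppp1r15a), and there more genes also passed after adjustment, as given below. After Benjamini-Hochberg adjustment by edgeR, 0 genes (0%) passed 0.05 in either comparison, while without adjustment 418 genes (3.43%) in I.P. mice and 632 (5.41%) in S.C. mice did. The adjusted counts by the likelihood ratio test were 10 genes by I.P. and 179 by S.C., and by DESeq2 19 and 107.

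**Figure D1:**
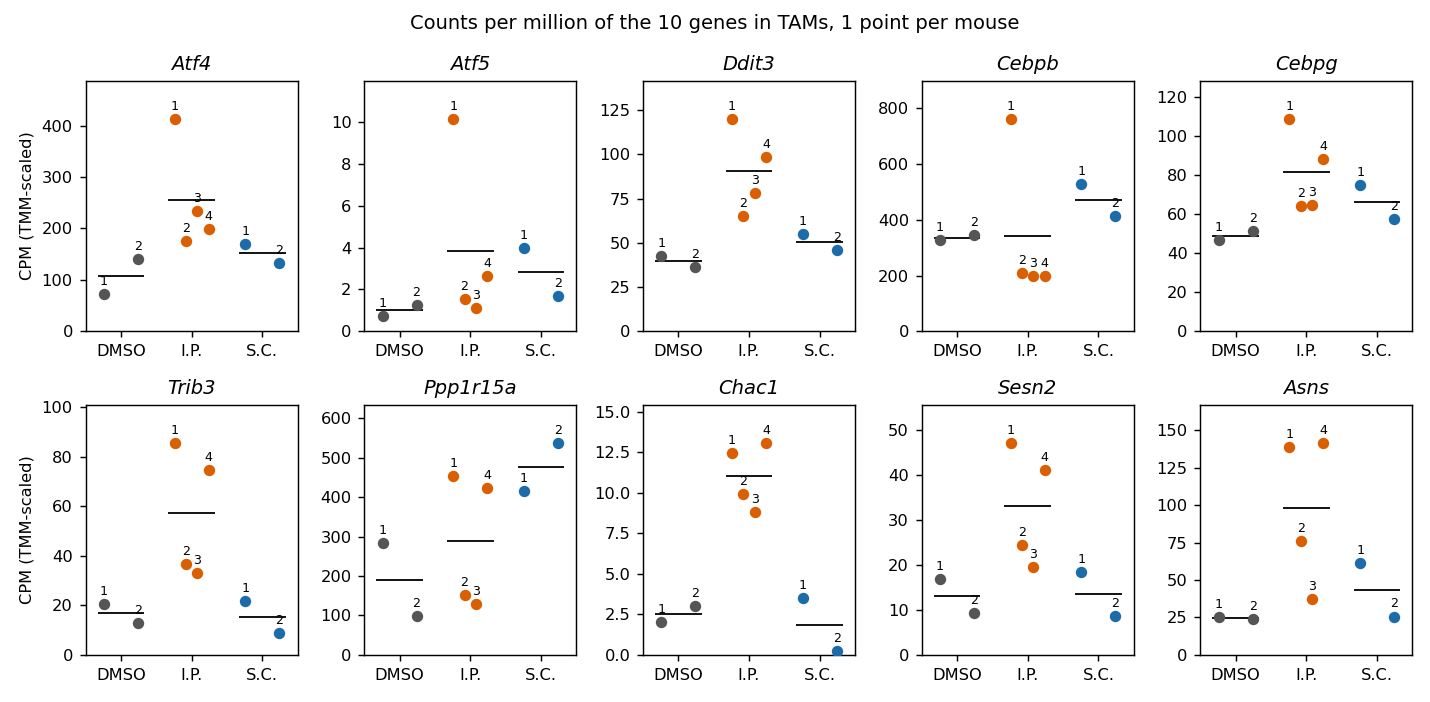
CPM (vertical axes, linear from 0, a different range for each gene) in each mouse of the 3 groups, with the mouse number beside each point and the group mean as a line. For Chac1 the 4 I.P. mice sit between 8.81 and 13.1 CPM and the DMSO mice at 2.04 and 3.04 CPM, while for Cebpb 3 of the 4 I.P. mice sit below both DMSO mice.

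Atf4 encodes the transcription factor at the center of the pathway and lies on chromosome 15, bases 80255184 to 80257541 (GRCm38). It was at 72.7 and 141 CPM in the DMSO mice, at 412, 175, 233 and 198 CPM in I.P. mice 1 to 4, and at 170 and 133 CPM in the S.C. mice. All 4 I.P. mice were above both DMSO mice, while the S.C. mice fell on both sides of DMSO mouse 2. The log2 fold change by I.P. was 1.24 (SE 0.42), and that by S.C. was 0.48 (SE 0.42). The I.P. value was 0.85 without DMSO mouse 1 and 1.81 without DMSO mouse 2. Without I.P. mouse 1 or without DMSO mouse 1, Atf4 no longer met the criterion.

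Atf5, a bZIP factor whose mRNA is also translated preferentially when eIF2 is phosphorylated, lies on chromosome 7, bases 44812256 to 44816658. It was the lowest of the 10 genes per length in DMSO mice, with 11 and 22 counts. The I.P. mice had 159, 25, 20 and 45 counts and the S.C. mice 59 and 23. As CPM, I.P. mouse 1 was at 10.1 and I.P. mouse 3, at 1.13, lay below DMSO mouse 2, at 1.26, so the groups overlapped. The log2 fold change by I.P., 1.91 (SE 0.99), was 0.79 without I.P. mouse 1. Both S.C. mice, at 3.97 and 1.68 CPM, lay above the DMSO mice, with a log2 fold change of 1.45 (SE 1.06). The S.C. value was 0.70 without S.C. mouse 1 and 1.90 without S.C. mouse 2. Of its exon bases, 4.1% overlap Nup62 and Il4i1 on the opposite strand.

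Ddit3, which encodes the proapoptotic factor CHOP, lies on chromosome 10, bases 127290774 to 127296288. It was at 42.6 and 36.4 CPM in the DMSO mice, 120, 65.4, 78.3 and 98.6 CPM in the I.P. mice and 54.9 and 45.7 CPM in the S.C. mice. Both thiostrepton groups lay wholly above the DMSO mice, and the I.P. mice wholly above the S.C. mice. Its log2 fold change was 1.19 (SE 0.29) by I.P. and 0.32 (SE 0.34) by S.C. Left out in turn, no mouse of either group took Ddit3 below the criterion by I.P. In GENCODE, 4.0% of its exon bases overlap Mars on the opposite strand, and whether the counting used strand is not given in the sources used here.

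The C/EBP partners behaved differently from one another. Cebpg, a dimer partner of ATF4 on chromosome 7, bases 35046422 to 35056573, was at 46.8 and 51.2 CPM in DMSO mice, 109, 64.3, 64.7 and 88.1 CPM in I.P. mice and 74.7 and 57.7 CPM in S.C. mice. Every thiostrepton mouse was above both DMSO mice (log2 fold change 0.72 by I.P., SE 0.28, and 0.41 by S.C., SE 0.33). Cebpb, on chromosome 2, bases 167688915 to 167690418, was at 327 and 345 CPM in DMSO mice and at 762, 210, 199.8 and 198.5 CPM in I.P. mice. I.P. mouse 1 was far above the other 3, which lay below both DMSO mice. Its log2 fold change by I.P. was 0.01 (SE 0.56), and it was -0.73 without I.P. mouse 1. In the S.C. mice it was at 528 and 414 CPM, above both DMSO mice, with a log2 fold change of 0.46 (SE 0.30). Of the exon bases of Cebpb, 20.7% overlap Tmem189 on the opposite strand.

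**Figure D2:**
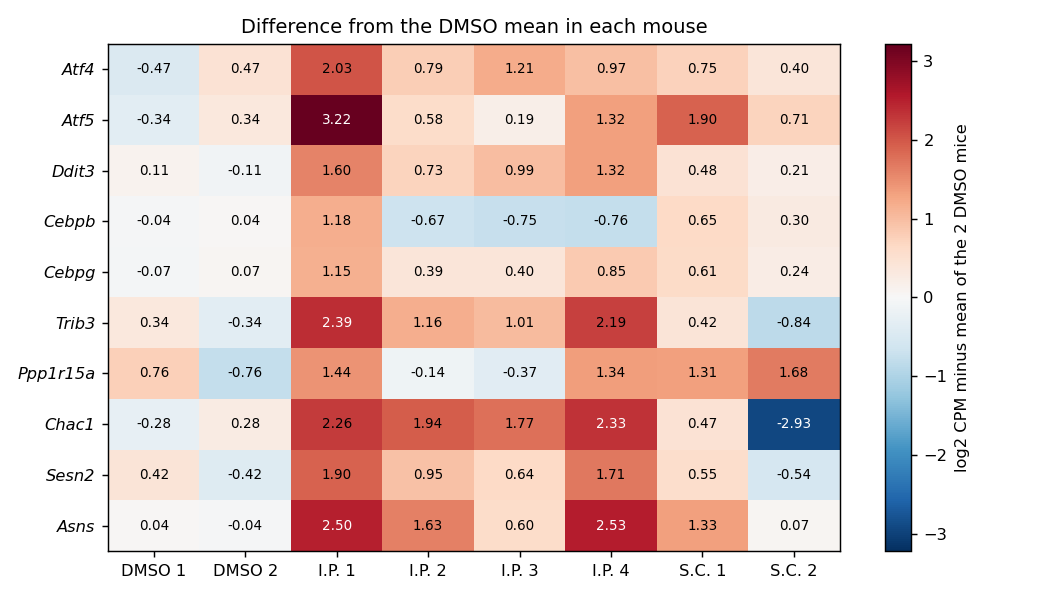
Difference in log2 CPM from the mean of the 2 DMSO mice, for each gene (rows) in each mouse (columns), with the value printed in each cell. The rows of Chac1, Trib3, Asns and Sesn2 are above 0 in all 4 I.P. mice and largest in I.P. mice 1 and 4, and the row of Chac1 is at -2.93 in S.C. mouse 2.

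Among the feedback genes, Trib3 and Ppp1r15a did not share a pattern. Trib3, a pseudokinase that restrains ATF4 and CHOP activity, lies on chromosome 2, bases 152337422 to 152344032. It was at 20.6 and 12.9 CPM in DMSO mice, 85.6, 36.6, 32.9 and 74.8 CPM in I.P. mice and 21.7 and 9.03 CPM in S.C. mice. The lowest I.P. mouse was above all 4 DMSO and S.C. mice, and the S.C. mice straddled the DMSO mice. On the log2 scale the difference was 1.77 (SE 0.47) by I.P. and -0.15 (SE 0.61) by S.C. Without DMSO mouse 2 the I.P. comparison no longer met the criterion for Trib3 or for Sesn2.

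Ppp1r15a, which encodes the phosphatase subunit GADD34 that dephosphorylates eIF2, lies on chromosome 7, bases 45522916 to 45526268. It was at 283 and 99.0 CPM in DMSO mice, a wider ratio than for any other of the 10 genes. The I.P. mice were at 453, 152, 129.7 and 423 CPM, with I.P. mice 2 and 3 between the DMSO mice, and the S.C. mice were at 416 and 538 CPM, above both. Fitted log2 fold changes were 0.59 (SE 0.61) by I.P. and 1.30 (SE 0.54) in S.C. mice. The S.C. value was 2.23 without DMSO mouse 1 and 0.72, below 2-fold, without DMSO mouse 2. It was 1.47 without S.C. mouse 1 and 1.07 without S.C. mouse 2. Ppp1r15a did not meet the criterion by S.C. as reported. Among the other settings that kept at least 2 mice per group, it did with no gene filter, by the likelihood ratio test and by DESeq2. It also did with the replicate block, with the numbers as given or crossed. It did not with the filter of 1 CPM in 2 libraries, RLE size factors, library size only or all 3 groups in 1 fit.

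Chac1, which degrades glutathione through its gamma-glutamylcyclotransferase activity, had the largest difference by I.P. It lies on chromosome 2, bases 119351229 to 119354381. Its counts were 30 and 53 in the DMSO mice, 195, 163, 156 and 224 in the I.P. mice, and for S.C. 52 and 3. The I.P. group (11.1 ± 2.03 CPM, SD, n = 4) was narrow and lay above every other mouse, where DMSO mice were at 2.54 ± 0.713 CPM (SD, n = 2). S.C. mouse 2 was at the floor of 3 counts, and S.C. mouse 1, at 3.50 CPM, was just above the DMSO mice. Its log2 fold change was 2.11 (SE 0.39) by I.P., and it was 1.87 in I.P. mice 2 and 3 alone. By S.C. it was -0.48 (SE 1.38), and it rests on which S.C. mouse is kept: it was 0.40 without S.C. mouse 2 and -3.52 without S.C. mouse 1.

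Asns, asparagine synthetase, lies on chromosome 6, bases 7675169 to 7693254. It was at 25.1 and 23.8 CPM in DMSO mice, 139, 76.0, 37.2 and 142 CPM in I.P. mice and 61.6 and 25.6 CPM in S.C. mice. All 6 thiostrepton mice were above both DMSO mice, S.C. mouse 2 by little. Asns had a log2 fold change of 2.0 (SE 0.53) by I.P. and 0.81 (SE 0.51) by S.C. The S.C. value was 0.04 without S.C. mouse 1 and 1.27 without S.C. mouse 2.

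Sesn2, which restrains mTORC1 when leucine is short, lies on chromosome 4, bases 132492032 to 132510501. It was at 16.8 and 9.31 CPM in DMSO mice, 47.1, 24.3, 19.6 and 41.1 CPM in I.P. mice and 18.4 and 8.59 CPM in S.C. mice. The I.P. mice were above all others, and the S.C. mice spanned the DMSO mice. Sesn2 had a log2 fold change of 1.33 (SE 0.44) by I.P. and 0.02 (SE 0.63) by S.C.

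**Figure D3:**
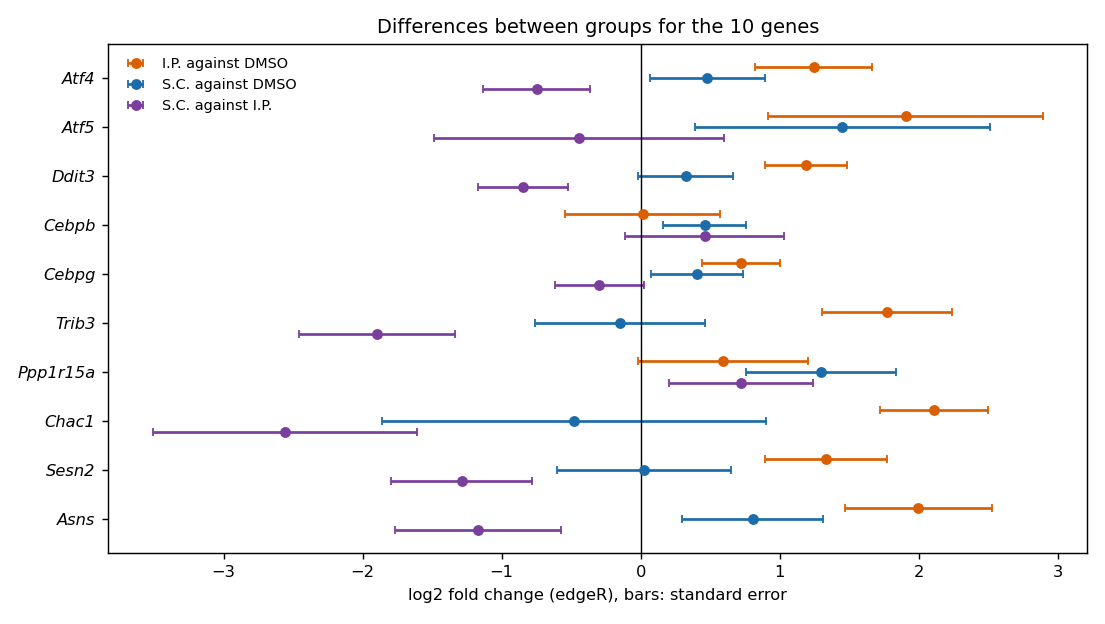
Log2 fold changes from edgeR (horizontal axis) with bars of 1 standard error for each gene in the 3 comparisons. By I.P. the points run from 0.01 for Cebpb to 2.11 for Chac1, and in S.C. against I.P. mice those of Trib3, Chac1, Sesn2 and Asns lie below -1.

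Per kilobase of exon, Cebpb was the most abundant of the genes in DMSO mice at 223 ± 8.62 CPM per kb (SD, n = 2), with Ppp1r15a at 65.0 ± 44.2, Atf4 at 45.2 ± 20.3 and Ddit3 at 23.1 ± 2.56 next. The SDs of Ppp1r15a and Atf4 overlapped, as did those of Asns (8.95 ± 0.328), Cebpg (8.72 ± 0.564) and Trib3 (7.87 ± 2.56). Sesn2 (3.76 ± 1.53), Chac1 (1.55 ± 0.436) and Atf5 (0.504 ± 0.184) were lowest. In I.P. mice Atf4 stood above Ppp1r15a, at 108 ± 45.7 against 98.5 ± 58.6 CPM per kb (SD, n = 4), and Trib3 above Cebpg, at 27.0 ± 12.5 against 14.5 ± 3.78. Only the second of these pairs was further apart than the smaller of its SDs. In S.C. mice Chac1 was the lowest, at 1.14 ± 1.42 CPM per kb (SD, n = 2).

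Across the 8 libraries the genes varied together to different degrees. I.P. mouse 1 had the highest value of 7 of the 10 genes, I.P. mouse 4 of Chac1 and Asns, and S.C. mouse 2 of Ppp1r15a. The mean log2 CPM of the 10 genes was 4.77 and 4.67 in DMSO mice, 6.69, 5.46, 5.29 and 6.10 in I.P. mice and 5.57 and 4.65 in S.C. mice. The I.P. mice with the highest values, 1 and 4, had melanoma marker sums of 509 and 1653 CPM and neutrophil marker sums of 84.9 and 62.2 CPM, the highest neutrophil sums of the DMSO and I.P. mice, and the part of these cells in the I.P. values was not tested. By I.P., 5 of the 10 genes met the criterion without I.P. mouse 1, where 197 genes were called in all. Without I.P. mouse 4, 6 of the 10 did, with 185 called in all. Without I.P. mice 1 and 4 together, tried only once these values were known, 3 of the 10 genes (Asns, Chac1 and Trib3) met it. There 126 genes were called in all, and the median log2 fold change of the 10 was 0.81. As a description over 8 libraries that share treatments and scaling, Pearson's r between a gene's log2 CPM and the mean of the other 9 was 0.98 for Cebpg, 0.92 for Asns, 0.90 for Ddit3 and 0.87 for Sesn2. It was 0.85 for Atf5, 0.85 for Trib3, 0.79 for Atf4, 0.59 for Chac1, 0.35 for Ppp1r15a and 0.21 for Cebpb. The closest pair was Trib3 and Sesn2 (r = 0.99) and the farthest Ppp1r15a and Chac1 (r = -0.27).

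Outside the 10, the genes whose log2 CPM followed their mean standardized level most closely over the 8 libraries, among 9319 genes averaging 5 CPM or more, were Usp2 (r = 0.97), Dnpep (0.97), Iqsec1 (0.96), Chka (0.96) and Mthfs (0.96). The most opposed were Snx6 (r = -0.98), Sdhaf2 (-0.98) and Tpm3 (-0.98). Usp2 was at 6.58 and 3.73 CPM in DMSO mice, 28.4, 9.25, 8.81 and 16.1 CPM in I.P. mice and 12.3 and 6.48 CPM in S.C. mice. With Spearman's rho in place of r, 2 of the 5 closest genes were shared, Usp2 and Chka.

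Set directly against each other, without the DMSO mice, the 2 thiostrepton groups gave the following differences. The paper describes its S.C. dose as lower than its I.P. doses, so route and dose cannot be told apart here. For 5 of the 10 genes (Trib3, Chac1, Ddit3, Sesn2 and Atf4) both S.C. mice lay below all 4 I.P. mice, as did 10.5% of 12206 genes tested, and for 0 of the 10 they lay above, as did 8.05%. The 10 genes had a median log2 fold change of -0.80, against 0.02 over all genes, and 2 of them were above 0, as were 51.8% of all genes. The value was -2.56 (SE 0.95) for Chac1, -1.90 (SE 0.56) for Trib3, -1.29 (SE 0.51) for Sesn2 and -1.17 (SE 0.60) for Asns. It was 0.72 (SE 0.52) for Ppp1r15a and 0.46 (SE 0.57) for Cebpb. Cebpb was at 1.22 without I.P. mouse 1, where it met the criterion as higher in S.C. mice. Chac1 was at -5.61 without S.C. mouse 1 and at -1.66 without S.C. mouse 2. Trib3, Chac1 and Sesn2 met the criterion, which called 4.64% of all genes lower and 2.41% higher. Without I.P. mouse 1 or without I.P. mouse 4, Chac1 and Sesn2 did not, and without S.C. mouse 2 only Chac1 did. Asns also met it without I.P. mouse 3, by DESeq2 and with the replicate block, and was at -1.94 without S.C. mouse 1. In the same comparison 6 of 9 neutrophil, 4 of 5 T and NK cell, 2 of 3 B cell and 1 of 3 dendritic cell markers tested met the criterion and were higher in S.C. mice, and their part in these differences was not tested. No gene (0 of 12206, 0%) passed 0.05 after adjustment by edgeR, 1049 (8.59%) had an unadjusted P under 0.05, and 265 and 234 passed after adjustment by the likelihood ratio test and DESeq2.

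Other genes of the pathway were taken from lists that do not contain the 10. The list of eIF2 kinases and eIF2 machinery held 20 genes, all tested, of which 0 met the criterion in any of the 3 comparisons. The list had a median log2 fold change of -0.11 in I.P. mice and -0.06 in S.C. mice, each against DMSO. The 2 with the smallest P by I.P. were Eif2s3x, an eIF2 subunit, at -0.44 (SE 0.29), and Ppp1cb, a catalytic subunit of protein phosphatase 1, at -0.32 (SE 0.22). By S.C. they were Eif2ak2, which encodes PKR, at -1.18 (SE 0.55), and Gcn1l1, which encodes the GCN2 activator GCN1, at 0.96 (SE 0.54). The adjusted p of these genes by edgeR was 0.971 or above. Eif2ak2 met the criterion by S.C. in the fit with all 3 groups and with crossed replicate numbers. Its value was -0.68 without S.C. mouse 1 and -1.99 without S.C. mouse 2.

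Of the amino acid transporters under ATF4, 8 of 10 were tested by I.P., with a median log2 fold change of 0.88, and 2 rose by the criterion. Slc7a11, the cystine importer, was at 7.67 and 9.19 CPM in DMSO mice, 61.5, 16.7, 11.1 and 19.2 CPM in I.P. mice and 27.8 and 43.3 CPM in S.C. mice. All 6 thiostrepton mice were above both DMSO mice, with a log2 fold change of 1.67 (SE 0.67, adjusted p = 0.98 by edgeR) by I.P. and 2.05 (SE 0.47, adjusted p = 0.747 by edgeR) by S.C. Slc1a4, a transporter of neutral amino acids, had 1.48 by I.P. (SE 0.63, adjusted p = 0.98 by edgeR) and I.P. mouse 3 lay between the DMSO mice. By S.C., 7 were tested, with a median of 0.60, and 1, Slc7a11, rose. Slc7a11 by I.P. was 0.89 without I.P. mouse 1, below 2-fold, and its I.P. call was also lost without either DMSO mouse. Its S.C. call did not hold without DMSO mouse 1. The Slc1a4 call was lost under several settings, among them without I.P. mouse 1, 2 or 4.

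Of the amino acid and 1-carbon enzymes under ATF4, 11 of 12 were tested and 1 rose by each route. This was Phgdh, the first enzyme of serine synthesis, at 7.06 and 16.9 CPM in DMSO mice, 118, 42.0, 18.7 and 73.4 CPM in I.P. mice and 72.5 and 27.6 CPM in S.C. mice. All thiostrepton mice were above both DMSO mice, I.P. mouse 3 by little. The log2 fold change was 2.38 (SE 0.73, adjusted p = 0.98 by edgeR) by I.P. and 2.03 (SE 0.67, adjusted p = 0.812 by edgeR) by S.C., and neither call held without DMSO mouse 1. The median of the list was 0.72 by I.P., where 6 of 11 genes lay wholly above the DMSO mice (7.32% of all genes) and 1 wholly below (6.83%). By S.C. the median was -0.22, with 3 genes wholly above (17.1% of all genes) and 3 wholly below (17.2%).

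Of the other stress regulators under ATF4, 13 of 16 were tested by I.P. and 3 rose (Gdf15, Jdp2 and Sqstm1), and 12 were tested by S.C. and 2 rose (Gdf15 and Atf3). The list had a median log2 fold change of 0.36 in I.P. mice and 0.66 in S.C. mice. Gdf15, a secreted stress cytokine, was at 129 and 123 CPM in DMSO mice, 711, 275, 217 and 254 CPM in I.P. mice and 500.5 and 288 CPM in S.C. mice, with no overlap by either route. Its log2 fold change was 1.52 (SE 0.49, adjusted p = 0.98 by edgeR) by I.P. and 1.62 (SE 0.37, adjusted p = 0.747 by edgeR) by S.C. Jdp2, a bZIP repressor, was at 29.7 and 31.3 CPM in DMSO mice and 119, 55.5, 57.2 and 64.5 CPM in I.P. mice, with a log2 fold change of 1.27 (SE 0.36, adjusted p = 0.98 by edgeR). With I.P. mouse 1 left out, the I.P. values of Gdf15, Jdp2 and Sqstm1 were 0.98, 0.95 and 0.89, all below 2-fold, and the I.P. call of Gdf15 was also lost without either DMSO mouse. Atf3, an early stress-induced bZIP gene, had 1.17 by S.C. (SE 0.35, adjusted p = 0.747 by edgeR), and that call did not hold without DMSO mouse 1, DMSO mouse 2 or S.C. mouse 2.

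**Figure D4:**
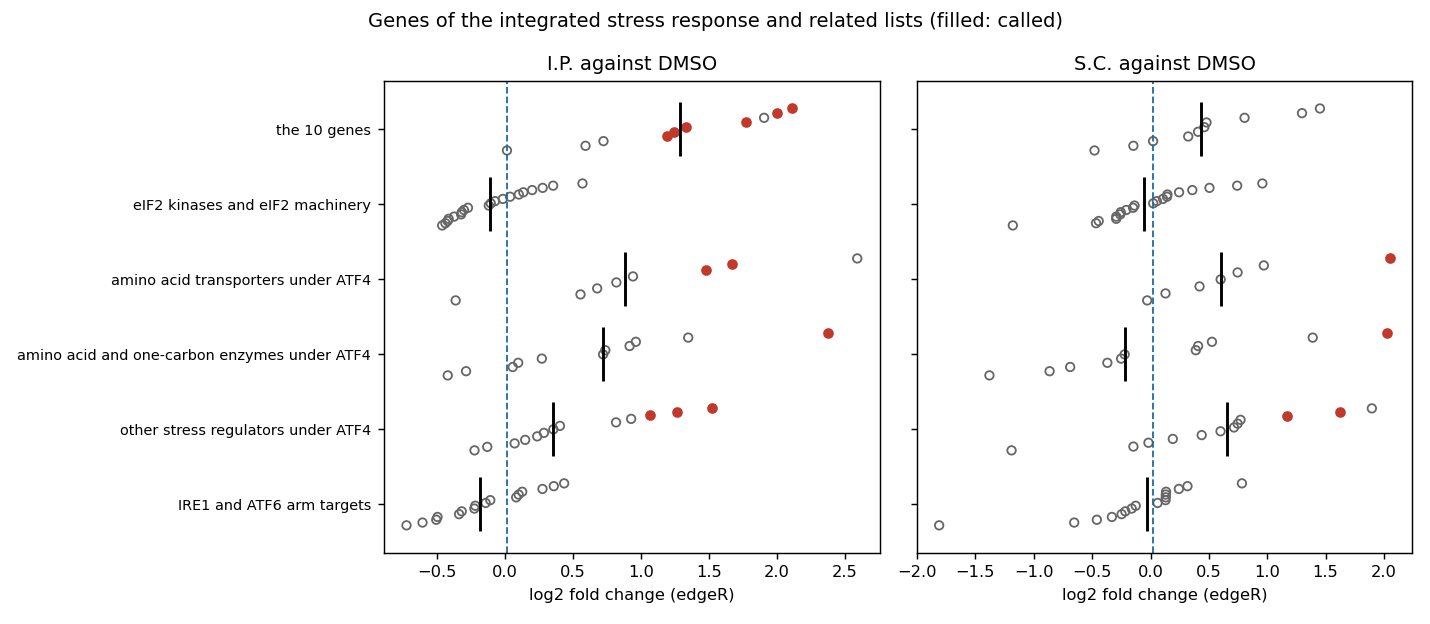
Log2 fold changes (horizontal axes) of the genes tested in the 10 genes and 5 of the other lists (the other bZIP genes are not drawn), by I.P. (left) and by S.C. (right), with genes that met the criterion filled, the list's median as a black bar and the median of all genes tested as a dashed line. By I.P. the medians of the 10 genes (1.29), the transporters (0.88), the enzymes (0.72) and the other stress regulators (0.36) lie to the right of the dashed line, and those of the eIF2 machinery (-0.11) and the IRE1 and ATF6 arm (-0.18) to the left, and by S.C. the other stress regulators have the highest median (0.66).

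Of 21 other bZIP genes, 19 were tested by S.C. and 5 rose, all of them AP-1 genes. Junb had the second smallest P of these after Fosb. It was at 297 and 140 CPM in DMSO mice, 1105 and 1479 CPM in S.C. mice, and 1591, 155, 161 and 239 CPM in I.P. mice, where I.P. mouse 1 alone reached the S.C. level. Its log2 fold change by S.C. was 2.54 (SE 0.47, adjusted p = 0.747 by edgeR). Fosb, which lost its call in the fit with all 3 groups, had 4.90 by S.C. (SE 0.69, adjusted p = 0.563 by edgeR), and was at 1.90 and 0.862 CPM in DMSO mice, 69.6, 0.547, 1.19 and 0.875 CPM in I.P. mice and 55.7 and 28.6 CPM in S.C. mice.

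The parallel arms of the unfolded protein response, run by IRE1 and ATF6, were represented by 16 genes, all tested, and 0 met the criterion by I.P. or by S.C. The list had a median of -0.18 in I.P. mice and -0.03 in S.C. mice. Hspa5, the chaperone BiP, had -0.22 by I.P. (SE 0.29) and 0.13 by S.C. (SE 0.32), and Xbp1, the IRE1 target, had 0.13 (SE 0.24) and -0.16 (SE 0.31). Both were chosen after their values were seen. The counts are per gene symbol and do not tell transcript forms of Xbp1 apart. The 2 genes with the smallest P by I.P., Pdia4 and Pdia6, encode protein disulfide isomerases and were at -0.72 (SE 0.37) and -0.61 (SE 0.37). By S.C. they were Dnajb9, an ER co-chaperone, at 0.78 (SE 0.41), and Atf6, at -0.65 (SE 0.42). The S.C. value of Atf6 was -0.28 without S.C. mouse 1 and -1.21 without S.C. mouse 2. All 16 had an adjusted p of at least 0.98 by edgeR by both routes.

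Between S.C. and I.P. mice, 5 genes of these lists met the criterion. Slc1a5, a glutamine transporter, was higher in S.C. mice (1.13, SE 0.39, adjusted p = 0.481 by edgeR). Without S.C. mouse 1 the value was 0.32, and the call was also lost without I.P. mouse 3 and with the replicate block (0.95). Slc43a1 had 135 and 5 counts in S.C. mice and 0, 0, 1 and 14 in I.P. mice, so that its call rests on S.C. mouse 1, and it was also lost without I.P. mouse 1, 2 or 3. Slc6a9, a glycine transporter, had 0 counts in both S.C. mice and 29, 3, 3 and 15 in I.P. mice, with 0 and 4 in DMSO mice. Its log2 fold change was -6.62, and the call was lost without either S.C. mouse. It was not tested without I.P. mouse 1 or 4, with the filter of 1 CPM in 2 libraries or with the replicate block. Hmox1, heme oxygenase 1, was lower in S.C. mice (-1.24, SE 0.46, adjusted p = 0.508 by edgeR), in groups that overlapped. Its call was lost without I.P. mouse 1 or S.C. mouse 2 and in the fit with all 3 groups. Atf6, the sensor of its own arm, was lower too (-1.07, SE 0.41, adjusted p = 0.525 by edgeR), at 27.9 and 52.0 CPM in S.C. mice against 60.8 to 126 CPM in I.P. mice. It lost its call without I.P. mouse 4 (-0.81) or S.C. mouse 1 (-0.69) and with the replicate block (-0.82).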

How the data were processed

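RNA-seq counts of TAMs from 8 mice, 1 library per mouse, were used. The authors aligned reads to mm10 and deposited whole-number counts per gene symbol without normalization, made with bowtie2 and RSEM by the paper's methods, while the submitters' processing notes name TopHat2 and edgeR. Libraries were prepared with the KAPA mRNA HyperPrep kit, and the strand setting of the counting is not given in the sources used here. The software was edgeR 4.0.16 and DESeq2 1.42.0, run in R 4.3.3. Genes were kept by filterByExpr (minimum count 10, minimum total count 15), scaled by TMM and compared for each pair of groups by the two-sided quasi-likelihood test, with Benjamini-Hochberg adjustment over all genes tested. The standard error is the log2 fold change divided by the square root of F. Log2 CPM used a prior count of 2. P-values measure the spread between these mice, of which DMSO and S.C. have 2 each.

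The 10 genes and the other lists were chosen with earlier results of these data known. From the other lists, the text names up to 4 genes that met the criterion per comparison, or the 2 with the smallest P where none did, and gives some of these as counts only. For the other bZIP genes, the I.P. result is not reported here. Positions are from GENCODE vM21 (GRCm38, the assembly of mm10) and lengths are unions of its exons. Pairs of libraries within a group differed by far more than counting noise (chi-square per degree of freedom 50.5 to 177). In 10 simulated sets per comparison with 200 genes changed 4-fold, a median of 92.8% (I.P. against DMSO, 12174 genes), 78.2% (S.C. against DMSO, 11680 genes) and 78.8% (S.C. against I.P., 12206 genes) were called. Alternatives were other gene filters, RLE size factors, library size only, DESeq2, the likelihood ratio test, a joint fit of all 3 groups, a replicate block and leaving out each mouse. Leaving out I.P. mice 1 and 4 together and crossing the numbers of the block were chosen after the data were seen.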

Additional observations from a re-analysis of the deposited data

Results flagged for a closer look

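Cebpb stood out within the I.P. group. Its log2 CPM in I.P. mouse 1 was separated from the nearest of the other 3 mice by 0.957 of the group's whole range, above the critical value of Dixon's test for 4 samples. In CPM the I.P. mice were at 762, 210, 199.8 and 198.5, against 327 and 345 in DMSO mice. Of the 11 measures tested (the 10 genes and their mean), 1 passed, and chance passes about 1 in 20.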

How the results depend on the processing

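The 6 genes that met the criterion by I.P. (Asns, Atf4, Chac1, Ddit3, Sesn2 and Trib3) met it under each other filter, scaling, tool, joint fit and replicate block, and DESeq2 added Atf5. With the replicate block, which uses I.P. mice 1 and 2 only, the median log2 fold change of the 10 genes was 1.41 by I.P., 0.42 by S.C. and -0.85 in S.C. against I.P. mice. The deviations from the group means of mice with the same number correlated at r = -0.13 to 0.07, so the numbers were not taken to pair the mice. The block called 291 genes by I.P. (49.1% higher, against 76.5% without it), 429 by S.C. and 389 in S.C. against I.P. mice (860 without it), of which 0, 19 and 7 had an adjusted p under 0.05. With the numbers crossed, 475 genes were called by S.C. and 2 passed. By I.P., the fit of all 3 groups called 160 genes against 243 as reported. Without I.P. mice 1 and 4, 126 genes were called and the median of the 10 genes was 0.81, against 1.29. At an adjusted p under 0.05, 0 genes passed in each comparison as reported. By I.P. 10 passed by the likelihood ratio test and 19 by DESeq2. By S.C. 10 passed with no gene filter, 179 by the likelihood ratio test, 107 by DESeq2 and 4 with all 3 groups. In S.C. against I.P. mice 265, 234 and 2 passed by the last 3 of these. With each mouse left out in turn, the calls ran from 116 to 361 genes by I.P., from 113 to 3432 by S.C. and from 632 to 2115 in S.C. against I.P. mice, with 0, 0 to 2407 and 0 to 138 at an adjusted p under 0.05. By S.C., leaving out DMSO mouse 1 or 2 gave 206 and 113 calls and leaving out S.C. mouse 1 or 2 gave 2989 and 3432. In the latter the lone S.C. mouse is assumed to vary like the mice of the other group. The median of the 10 genes then ran from 0.98 to 1.57, from 0.20 to 0.57 and from -1.09 to -0.55. Library size alone moved the median of all genes by S.C. from 0.02 to -0.13 and the share of higher calls from 45.3% to 31.4%. Depth limits Atf5 and Chac1, whose lowest libraries had 11 and 3 counts. The cause of these changes was not tested. By I.P. the lowest count, 116, was without DMSO mouse 1. Over all alternatives, the fold changes of the 10 genes were set against their spread, the SD of log2 CPM within groups. They moved by more than it in 9 gene-by-setting values by I.P., 8 by S.C. and 3 in S.C. against I.P. mice. In the other 141, 122 and 137 they did not. A move within the spread could still lose a call or change a sign. Sesn2 by S.C. stayed within it, with the opposite sign in 5 of 13 alternatives.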
